A study of Mus musculus with 4 samples.

Results

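The nuclear-encoded genes of the mitochondrial respiratory chain were taken from the gene counts of mechanically loaded and unloaded MLO-Y4 cells. The members were all genes whose listed name begins with Nduf (complex I), Uqcr (complex III), Cox4, Cox5, Cox6, Cox7 or Cox8 (complex IV) or Atp5 (complex V, ATP synthase), together with *Sdha*, *Sdhb*, *Sdhc* and *Sdhd* (complex II). Names that contain -ps, most of them pseudogenes, were left out (9 of 107 names). This gave 98 of the 55450 listed genes, under 97 distinct symbols: 47 for complex I, 4 for complex II, 8 for complex III, 21 for complex IV and 18 for complex V. *Ndufa4* and *Ndufa4l2* carry a complex I name and were placed with complex IV, where the *Ndufa4* protein is now assigned. Of the 98 genes, 94 are annotated as protein coding and 4 as processed pseudogenes (*Ndufb4c*, *Ndufa11b*, *Ndufs6b* and *Cox6c2*).

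MLO-Y4 is a mouse cell line with an osteocyte-like character, osteocytes being the cells embedded in bone matrix that sense mechanical load. Loaded cells were grown on collagen-coated plates with a silicone rubber membrane and stretched equally in all directions in the plane for 12 h, with a strain of 20% applied at 0.5 Hz. Unloaded cells stood in the same instrument's incubator for 12 h on ordinary 6-well plates, so that the plate surface differed between the groups as well as the stretch, and the 2 cannot be told apart. Each group had 2 libraries, of 28941994 and 30058313 counts in unloaded and 32185693 and 30337236 counts in loaded cells, all made from ribosome-depleted RNA. Nothing in the labels says that the libraries came from separate cultures, so p-values measure only the spread between these libraries, which may be technical. Of the osteocyte markers, *Pdpn* (143 to 228 CPM, the count scaled by library size after TMM normalisation), *Gja1* (485 to 584 CPM) and *Phex* (43.7 to 55.8 CPM) were present, *Dmp1* was at 0.396 to 0.482 CPM, *Mepe* had no counts and *Sost* and *Fgf23* were at or under 0.297 CPM. The summed level of each of the adipocyte, endothelial and striated muscle lists (3, 3 and 5 markers) did not exceed 3.10 CPM in any library. The osteoblast lineage list summed to 2285 to 2547 CPM. In it *Col1a1* (931 to 1032 CPM), *Col1a2* (1296 to 1504 CPM) and *Runx2* (48.5 to 56.4 CPM) were present. *Sp7*, *Alpl* and *Bglap* did not exceed 0.775 CPM. The macrophage and osteoclast list summed to 1569 to 1593 CPM, of which *Csf1r* took 1558 to 1584 CPM.

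The respiratory chain passes electrons from NADH (complex I) and succinate (complex II) through ubiquinone to complex III, then through cytochrome c to complex IV and oxygen. The protons pumped on the way drive ATP synthesis by complex V. A few subunits of complexes I, III, IV and V are encoded in mitochondrial DNA, and the rest, with all of complex II, in the nucleus. The nuclear genes are known targets of nuclear respiratory factor 1 (NRF1), of the ETS-family factor GABP and of YY1, with co-activators of the PGC-1 family. Loading and oxidative defence through NFE2L2, a different protein that is also abbreviated NRF2 and binds the antioxidant response element, were the subject of the study. The comparison below asks whether transcripts of the machine that uses oxygen differed after loading.

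The letters of the NRF1 site were found in a larger share of the members' promoters than of all promoters, a description that was not tested. RefSeq start sites on GRCm38.p6, with 250 bases before and 50 after the start, were matched for 76 of the 97 symbols, in 81 windows, and both strands were searched. GCGCANGCG, the core of the NRF1 site, was in 28.4% of member windows, in 12.6% of the windows of all tested genes and in 6.25% of all windows. AAGATGG, the YY1 motif, was in 14.8% of member windows, 7.03% of tested and 6.34% of all windows, and 9 of its 12 matches began after the start site. CCGGAAGT, the GABP motif, was in 6.17%, 7.86% and 3.89%, and TGACNNNGC, the core of the antioxidant response element, in 14.8%, 14.3% and 12.4%. No 2 of the members' matches to different motifs overlapped. The windows of members and of tested genes held a similar mean number of CG dinucleotides, 20.4 and 19.9, against 12.4 over all windows. Of the 76 members, 34 held none of the 4 motifs, 34 held 1 and 8 held 2. The windows printed here were chosen to show the motifs in genes described below. They run 5′ to 3′ on the gene's strand, with up to 25 bases on each side of the match and no base after the start site, and capitals mark the match. *Sdha* holds 3 NRF1 matches, and the one that begins 98 bases before the start is shown.
Sdha, NRF1, chr13:74350305-74350363, minus strand: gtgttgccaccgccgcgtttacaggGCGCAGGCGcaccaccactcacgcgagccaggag
Sdhd, NRF1, chr9:50603895-50603953, minus strand: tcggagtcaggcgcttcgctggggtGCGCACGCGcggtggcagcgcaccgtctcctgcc
Cox6a1, NRF1, chr5:115349042-115349100, minus strand: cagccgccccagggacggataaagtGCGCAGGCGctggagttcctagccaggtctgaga
Atp5g2, NRF1 on both strands, chr15:102671055-102671114, minus strand: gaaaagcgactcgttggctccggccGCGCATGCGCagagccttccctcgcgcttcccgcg
Uqcr11, GABP, chr10:80406855-80406912, minus strand: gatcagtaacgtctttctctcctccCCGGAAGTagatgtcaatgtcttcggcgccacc
Atp5j, YY1, chr16:84835033-84835089, minus strand: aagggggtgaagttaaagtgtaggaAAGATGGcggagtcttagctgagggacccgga
Ndufaf3, antioxidant response element on the other strand, chr9:108567563-108567621, minus strand: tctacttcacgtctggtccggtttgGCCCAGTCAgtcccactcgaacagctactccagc
Ndufv2, antioxidant response element on the other strand, chr17:66101594-66101652, minus strand: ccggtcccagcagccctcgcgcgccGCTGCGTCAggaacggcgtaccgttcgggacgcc

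The respiratory chain genes as a group were abundant. Of the 98 genes, 89 passed the filter on low counts. On a scale of CPM per kilobase of transcript, which allows levels of different genes to be compared, the median tested member stood at the 93.6th percentile of all tested genes. Of the 89, 56 were in the top 10% and 83 above the median. Together the members took 0.808% and 0.861% of all counts in unloaded and 0.840% and 0.801% in loaded cells. The 9 genes that were not tested had between 0 and 9 counts in each library. They were *Cox4i2*, *Cox6b2*, *Cox6c2*, *Cox7b2*, *Cox8b*, *Cox8c*, *Ndufa11b*, *Ndufs6b* and a second listing of *Atp5o*, and all but *Cox4i2*, *Cox6c2* and *Cox7b2* had no counts in any library.

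**Figure D1:**
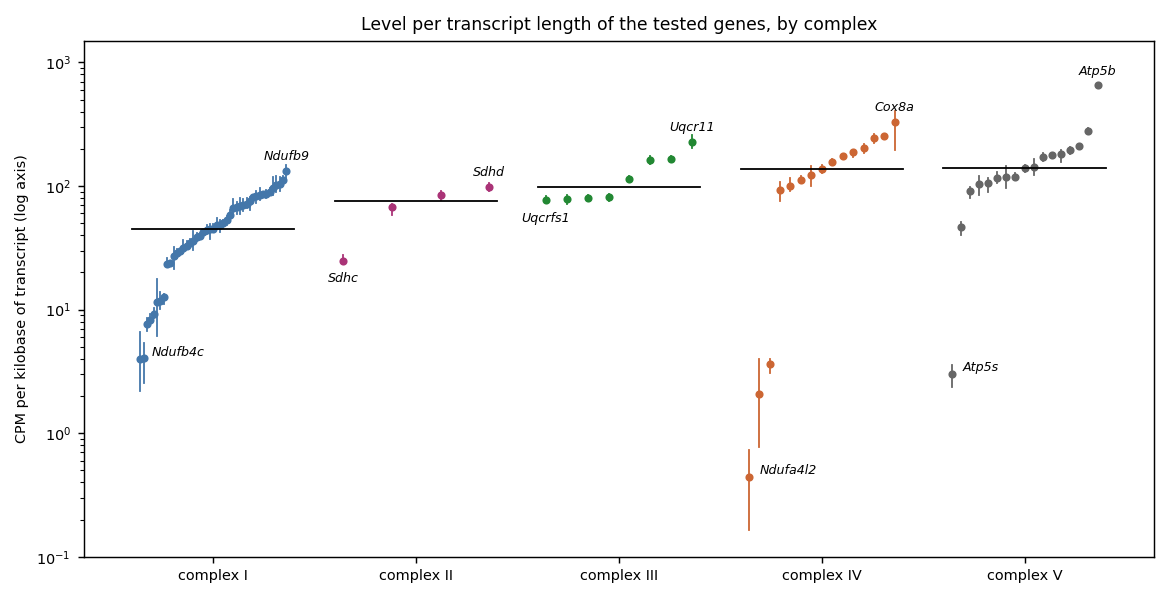
Mean level of each tested gene in CPM per kilobase of transcript (vertical log axis), sorted within complexes I to V. Points are means of the 4 libraries, vertical bars span the lowest to the highest library and horizontal lines are medians over the genes of a complex. By this length the median rose from 45.3 in complex I to 139 in complex V, and *Atp5b* stood highest of all at 652. With the length of all annotated exons the order of the complexes differed.

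Levels per kilobase differed between the complexes. The median was 45.3 CPM per kilobase over the 45 tested genes of complex I, 76.3 over complex II, 97.5 over complex III, 137 over complex IV and 139 over complex V. Within complex I, the 7 core subunits, which carry the redox centres, had a median of 52.9, the 30 tested accessory genes 57.4 and the 8 assembly factors, which are not part of the finished enzyme, 11.7. The 7 core subunits lay within 1.89-fold of each other and the 8 genes of complex III within 2.96-fold. *Atp5b*, the catalytic beta subunit of ATP synthase, was the highest member at 652 CPM per kilobase. *Atp5a1*, its alpha partner in the same catalytic head, was at 179. The next highest were *Cox8a* (329), *Atp5g2* (279), *Cox4i1* (256), *Cox6a1* (244) and *Uqcr11* (228), all small subunits of complexes III to V. The lowest tested genes were *Ndufa4l2* at 0.440, *Cox7a1* at 2.06, *Atp5s* at 3.0, *Cox6a2* at 3.60 and the pseudogene *Ndufb4c* at 3.98. These levels depend on the length assigned to each gene, here the median of its principal annotated transcripts. With the length of all annotated exons instead, *Atp5b* and *Cox8a* stayed first and second among the members, while *Atp5g2* went from rank 3 to rank 12. The order of the complexes changed too. By that length the middle gene of complex V was at 59.1 and that of complex IV at 69.9. The middle genes of complex III were at 73.5 and 69.8, and complex I stayed lowest, at 24.6.

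No member was called higher or lower in loaded cells. With the quasi-likelihood test of edgeR and Benjamini-Hochberg adjustment over all tested genes, a threshold of 0.01 on the adjusted p called 0 of 89 members higher, beside 0.0123% of all tested genes, and 0 of 89 lower, beside 0.0861%. At a threshold of 0.05 it again called 0 members, beside 0.904% of tested genes. The smallest adjusted p among the members was 0.203, for *Atp5mpl*. DESeq2 called 0 of the 87 members to which it gave an adjusted p, beside 2.85% of genes, with a smallest value of 0.0607, also for *Atp5mpl*, and limma-voom called 0 of 89, beside 0.0983%. At an unadjusted p under 0.05, edgeR had 2 members of 89 (2.25%), where 14.3% of all tested genes and 18.8% of those of at least 10 CPM passed. *Atp5mpl* was the 1 higher, beside 6.88% of tested genes, and *Ndufb5* the 1 lower, beside 7.46%. DESeq2 had 3 of 92 members (these and *Cox7a2l*, lower) beside 7.32% of genes, and limma-voom 4 of 89 (*Ndufa10* as the fourth) beside 14.9%.

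The differences between the groups were small in size as well as short of the threshold. The median log2 fold change (loaded against unloaded) was 0.0036 over the 89 members, with 47 positive and 42 negative values, a middle range of -0.095 to 0.054 and a whole range of -0.96 to 0.48. Over all tested genes the median was -0.0089. The median size of the log2 fold change, sign aside, was 0.065 in the members, 0.18 in all tested genes and 0.13 in tested genes of at least 10 CPM. A log2 fold change within 0.2 of 0 was found for 84.3% of the members, 53.7% of all tested genes and 69.2% of tested genes of at least 10 CPM. The 95% confidence interval lay within 0.5 of 0 on the log2 scale, about a 1.41-fold difference, for 70 of the 89 members (78.7%), beside 41.2% of all tested genes and 68.5% of those of at least 10 CPM. Both loaded libraries were above both unloaded libraries in 8 members (8.99%), where this held for 22.1% of tested genes, and below in 10 (11.2%), beside 24.5%. For the other 71 members the groups overlapped. These shares describe the members and were not tested. CPM are shares of a library, so a change that all transcripts had in common would not be seen, and in RNA from whole cultures fewer expressing cells and less RNA per cell cannot be told apart.

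**Figure D2:**
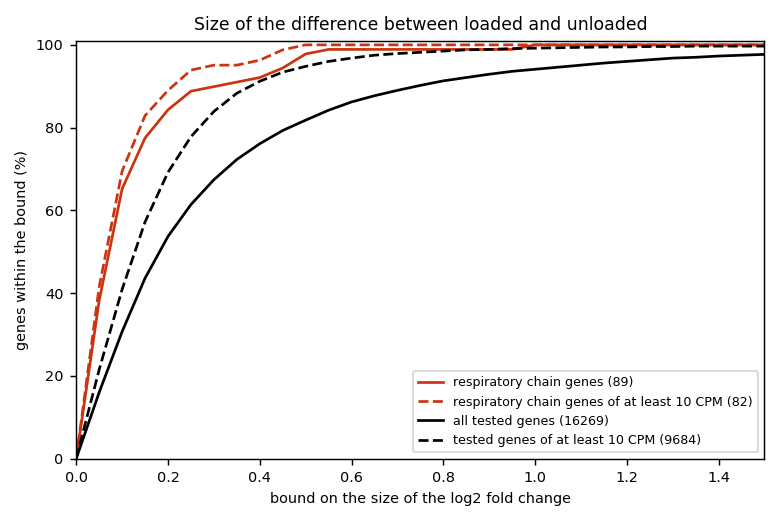
Share of genes (percent, vertical) whose log2 fold change between loaded and unloaded cells lies within the bound on the horizontal axis. Red lines are the respiratory chain genes and black lines all tested genes, with dashed lines for genes of at least 10 CPM. At a bound of 0.2 the members reach 84.3% and all tested genes 53.7%.

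**Figure D3:**
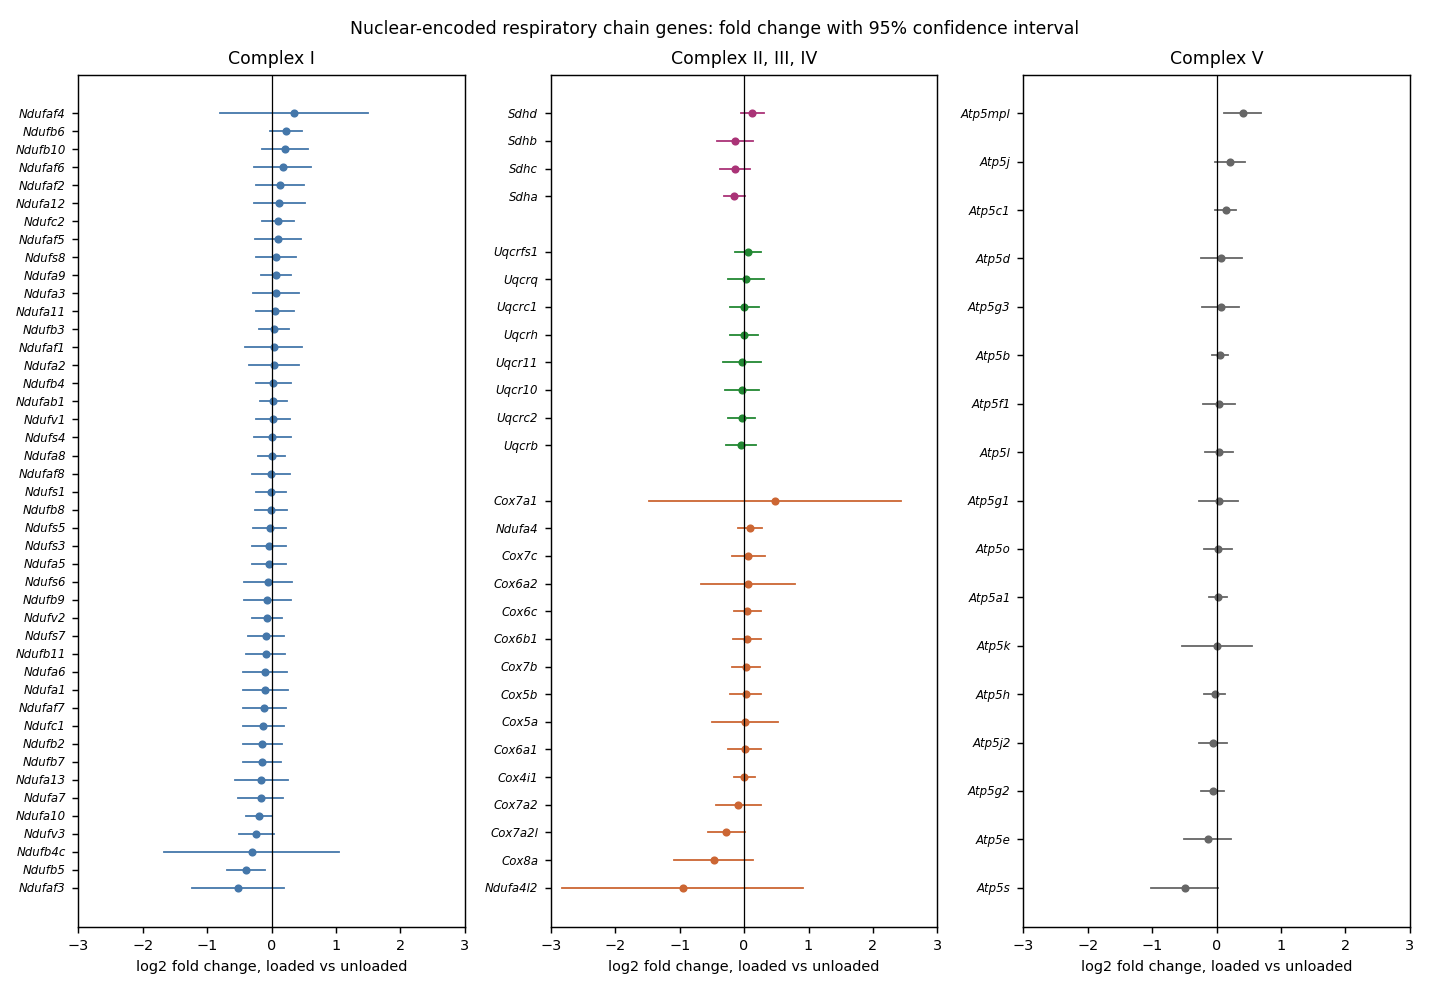
Log2 fold change of the tested genes, with 1 gene not drawn (points) with its 95% confidence interval from the edgeR fit (bars, 2 libraries a group), sorted within complexes I to V. The intervals of 2 genes, *Atp5mpl* above and *Ndufb5* below, leave out 0 before adjustment for the number of genes tested. The widest intervals belong to genes of low counts, such as *Ndufa4l2* and *Cox7a1*.

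Complex I, NADH dehydrogenase, had a median log2 fold change of -0.012 over its 45 tested genes, 20 of them positive and 25 negative. Its summed level was 2173 and 2337 CPM in unloaded and 2263 and 2178 CPM in loaded cells, so that the groups overlapped. The medians were -0.039 over the core subunits, -0.036 over the accessory genes and 0.064 over the assembly factors. All 7 core subunits overlapped between the groups, where 46.6% of all tested genes did not. Their 95% intervals all lay within 0.5 of 0, beside 41.2% of all tested genes and 68.5% of those of at least 10 CPM. *Ndufv2*, an iron-sulfur subunit of the module that oxidises NADH, was at 94.0 and 109 CPM in unloaded against 96.2 and 96.3 CPM in loaded cells (log2 fold change -0.079 ± 0.096, SE, n = 2 per group), with both loaded values inside the unloaded range.

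Of the accessory subunits, *Ndufb5* and *Ndufa10* had the smallest p. *Ndufb5*, a subunit of the membrane arm on chromosome 3 (GRCm38, 32736990 to 32751566, plus strand), was at 31.7 and 34.7 CPM in unloaded and 23.1 and 27.3 CPM in loaded cells. Both loaded libraries were lower, and the log2 fold change was -0.40 (95% interval -0.70 to -0.10; edgeR adjusted p = 0.227). Its exons share 616 bases with *Mrpl47* on the opposite strand, and without the strandedness of the counts the reads of the 2 genes cannot be told apart there. *Ndufa10*, which sits on the matrix side of the membrane arm (chromosome 1, 92439010 to 92473860, minus strand), was at 82.2 and 84.2 CPM against 73.5 and 72.2 CPM. These groups did not overlap either, with a log2 fold change of -0.19 ± 0.082 (adjusted p = 0.367). *Ndufb9*, the complex I gene with the highest level per kilobase, was at 88.7 and 103 CPM against 104 and 78.8 CPM, and the groups overlapped. Both loaded libraries were higher in 2 of the 30 tested accessory genes and lower in 4, beside 22.1% and 24.5% of all tested genes. The 2 higher were *Ndufb6* (39.4 and 43.4 against 47.3 and 49.1 CPM) and *Ndufa9* (56.1 and 56.1 against 56.7 and 60.7 CPM). The 4 lower were *Ndufb5*, *Ndufa10*, *Ndufv3* (49.3 and 57.9 against 45.7 and 45.2 CPM) and *Ndufc1* (17.5 and 20.5 against 17.4 and 17.4 CPM). *Ndufb6*, *Ndufa9*, *Ndufv3* and *Ndufc1* were picked out after their values were seen, and their edgeR adjusted p were 0.390, 0.805, 0.408 and 0.716.

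The complex I assembly factors had the highest median SE of the log2 fold change, 0.17, beside 0.11 over all members. *Ndufaf4* was at 51.4 and 22.4 CPM in unloaded and 29.9 and 64.2 CPM in loaded cells. Each group held a low and a high library, the second being 0.435 times the first in unloaded and 2.15 times the first in loaded cells, and the log2 fold change of 0.35 had a 95% interval of -0.79 to 1.49. *Ndufaf3*, which works with *Ndufaf4* early in assembly, was at 6.13 and 7.99 CPM against 6.07 and 3.76 CPM. Both loaded values were lower, the first by a margin smaller than the spread of either group, and the log2 fold change was -0.52 ± 0.29 (adjusted p = 0.487). *Ndufaf6* was at 7.30 and 8.32 CPM against 9.27 and 8.29 CPM, with a log2 fold change of 0.17 ± 0.18. For the 5 other assembly factors the groups overlapped.

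Complex II, succinate dehydrogenase, was the complex with the largest median difference, -0.14 on the log2 scale over its 4 genes. Its summed level was 535 and 544 CPM in unloaded and 512 and 505 CPM in loaded cells, a difference of -5.73%, and the groups did not overlap, with or without the TMM factors. *Sdha*, the flavoprotein that oxidises succinate (chromosome 13, 74322254 to 74350280, minus strand), was at 264 and 254 CPM in unloaded and 225 and 240 CPM in loaded cells. Both loaded libraries were lower, with a log2 fold change of -0.15 (95% interval -0.31 to 0.0076; edgeR adjusted p = 0.367). *Sdhb*, the iron-sulfur subunit, was at 80.7 and 81.9 CPM against 81.0 and 66.5 CPM, with the loaded library numbered 2 alone low (log2 fold change -0.14 ± 0.12). The membrane anchors went opposite ways: *Sdhc* was at 78.1 and 88.1 CPM against 76.6 and 73.6 CPM (-0.15 ± 0.096), and *Sdhd* at 112 and 120 CPM against 129 and 125 CPM (0.13 ± 0.075; adjusted p = 0.504). None of the 4 intervals left out 0. *Sdha* is the most abundant of the 4 in CPM and accounts for most of the difference in the sum, and *Sdhd* was the highest per kilobase (98.8) and *Sdhc* the lowest (24.9). The promoters of *Sdha* and *Sdhd* both held the NRF1 letters shown above, and a link to their levels was not tested.

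Complex III showed the smallest differences, with a median size of 0.036 on the log2 scale. All 8 genes overlapped between the groups, where 46.6% of all tested genes did not. All 8 intervals lay within 0.5 of 0, beside 41.2% of all tested genes and 68.5% of those of at least 10 CPM. The log2 fold changes ran from -0.050 for *Uqcrb* to 0.056 for *Uqcrfs1*. *Uqcrfs1*, the Rieske iron-sulfur protein, was at 103 and 103 CPM in unloaded and 102 and 113 CPM in loaded cells. *Uqcrb*, a small subunit near the ubiquinone site, was at 60.4 and 64.0 CPM against 58.4 and 61.7 CPM. *Uqcr11*, the highest of the complex per kilobase, was at 90.9 and 114 CPM against 103 and 97.0 CPM, the loaded values lying between the unloaded ones. The summed level was 762 and 823 CPM in unloaded and 781 and 795 CPM in loaded cells.

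Complex IV, cytochrome c oxidase, had a median log2 fold change of 0.024 over 15 tested genes, and its summed level was 1355 and 1517 CPM in unloaded and 1468 and 1289 CPM in loaded cells. *Cox7a2l*, which joins complex IV to complex III in supercomplexes (chromosome 17, 83501918 to 83517330, minus strand), was at 105 and 115 CPM in unloaded and 99.8 and 81.6 CPM in loaded cells. Both loaded libraries were lower, with a log2 fold change of -0.28 (95% interval -0.57 to 0.0072; edgeR adjusted p = 0.359). *Cox8a*, one of the smallest subunits (chromosome 19, 7215153 to 7217616, minus strand), was at 200 and 221 CPM against 195 and 109 CPM. The difference came from the loaded library numbered 2: the log2 fold change was -0.47 ± 0.25 (adjusted p = 0.460), and -0.11 without that library. *Cox4i1*, the regulatory subunit often used as a mitochondrial loading control, was at 189 and 197 CPM against 199 and 188 CPM, a log2 fold change of 0.00090 ± 0.068 that turned to -0.018 when libraries were scaled by total counts alone. *Cox5a* (picked out after its values were seen) was low in the first library of each group, at 64.5 and 93.4 CPM against 68.3 and 91.1 CPM.

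Several complex IV subunits and the ATP synthase c subunit come in isoforms with tissue-specific use, and MLO-Y4 cells used the widely expressed ones. Per kilobase, *Cox4i1* made up 99.8% to 100% of its pair in every library, and *Cox4i2*, the isoform known from lung and hypoxia, had 9 and 0 counts in unloaded and 0 and 5 counts in loaded cells. *Cox6a1* made up 98.2% to 98.9%, being 55.9 to 85.7 times as high as *Cox6a2*, the heart and skeletal muscle isoform, in each library. *Cox6b2*, known from testis, and *Cox8b*, a muscle isoform, had no counts in any library, which allows up to 3 counts, or 0.0930 to 0.103 CPM. *Cox7a1*, another muscle isoform, had 22 and 18 counts in unloaded and 51 and 9 counts in loaded cells, so that its log2 fold change of 0.48 had a 95% interval of -1.48 to 2.44. *Cox7a2* (47.8% to 54.2%) and *Cox7a2l* (45.4% to 51.2%) shared the rest of that family. The share of *Cox7a2l* was 51.2% and 47.8% in unloaded and 46.3% and 45.4% in loaded cells, without overlap, and this was not tested. *Cox7a2* was at 59.8 and 76.2 CPM against 68.3 and 59.7 CPM and overlapped between the groups. *Ndufa4* made up at least 99.6% of its pair in every library and was at 88.0 and 91.9 CPM against 96.3 and 95.1 CPM, both loaded values being higher (log2 fold change 0.09 ± 0.078, adjusted p = 0.660). Its relative *Ndufa4l2*, a gene known to be induced by hypoxia, was at 0.689 and 0.396 CPM against 0.155 and 0.403 CPM, a log2 fold change of -0.96 with an interval of -2.83 to 0.91.

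**Figure D4:**
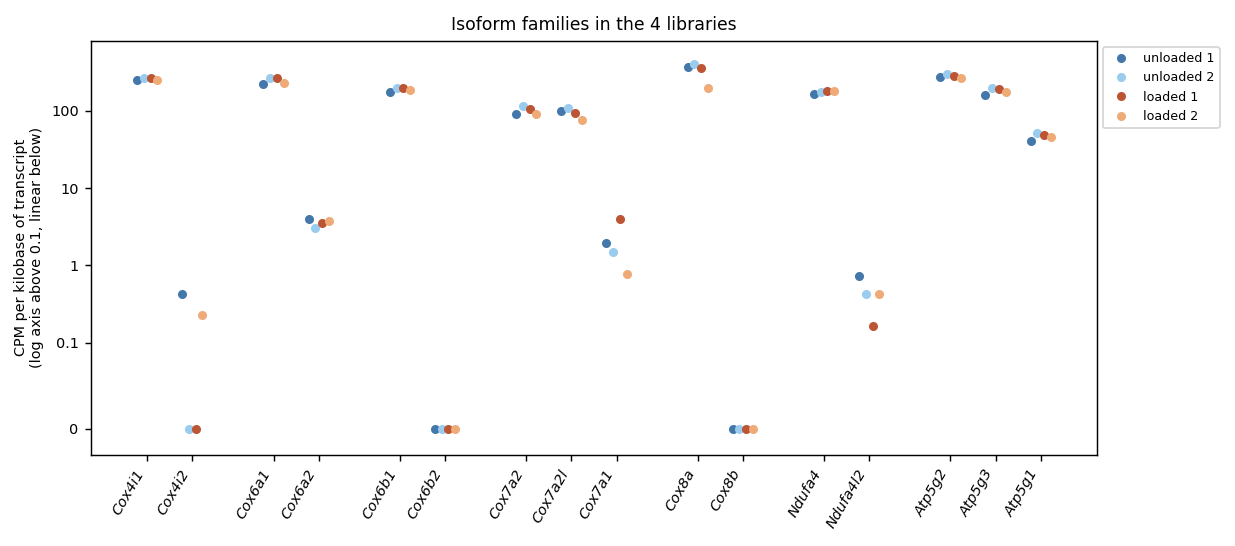
Level of each isoform in CPM per kilobase of transcript (vertical axis, log above 0.1 and linear below), with 1 point for each of the 2 unloaded (blue) and 2 loaded (orange) libraries. Ubiquitous isoforms lie at 40.4 or above in every library, and the muscle, testis and hypoxia isoforms at or below 4.02, with *Cox6b2* and *Cox8b* at 0.

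Complex V, ATP synthase, had positive values in 12 of 17 tested genes, with a median log2 fold change of 0.032. Its summed level was 3224 and 3317 CPM in unloaded and 3352 and 3383 CPM in loaded cells, a difference of 2.96%, with both loaded libraries higher. As a share of all counts, without the TMM factors, the groups overlapped, at 0.323% and 0.334% in unloaded and 0.336% and 0.332% in loaded cells. *Atp5mpl*, a small proteolipid that associates with the membrane part of the enzyme (chromosome 12, 111961375 to 111966977, minus strand), had the smallest p of all members. It was at 47.2 and 52.1 CPM in unloaded and 70.8 and 60.5 CPM in loaded cells, both loaded libraries being higher, and its log2 fold change was 0.40 (95% interval 0.12 to 0.69; edgeR adjusted p = 0.203). *Atp5s*, coupling factor B, was the lowest member of the complex, at 5.34 and 5.48 CPM against 4.03 and 3.66 CPM, with both loaded libraries lower (log2 fold change -0.49 ± 0.21, adjusted p = 0.371). *Atp5b* was at 1242 and 1213 CPM against 1242 and 1298 CPM, and the loaded and unloaded values met at 1242 CPM (log2 fold change 0.049 ± 0.051). *Atp5j* and *Atp5c1*, picked out after their values were seen, also had both loaded libraries higher, with log2 fold changes of 0.21 and 0.14 and adjusted p of 0.386 and 0.396. *Atp5j* and *Gabpa*, the gene of the DNA-binding subunit of GABP, lie head to head and share 397 exon bases on opposite strands. The 3 genes of the c subunit ring, whose mature proteins are identical, kept their order in every library. Per kilobase, *Atp5g2* made up 53.8% to 58.2% of their sum, *Atp5g3* 33.3% to 36.9% and *Atp5g1* 8.54% to 9.46%. These shares rest on assigned lengths of 586, 718.5 and 2675.5 bases in that order. In CPM, *Atp5g1* (108 to 137) lay close to *Atp5g3* (113 to 141). With the length of all annotated exons, the mean levels per kilobase were 97.5, 59.4 and 25.2. The log2 fold changes of *Atp5g2*, *Atp5g3* and *Atp5g1* were -0.061 ± 0.072, 0.063 ± 0.12 and 0.032 ± 0.12.

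The replicates of each group differed from each other in a direction that the members shared. In unloaded cells 72 of the 89 members (80.9%) were higher in library 2 than in library 1, with a median difference of 0.13 on the log2 scale, where 50.2% of all tested genes were higher and the median was 0.00092. In loaded cells 56 of 89 (62.9%) were lower in library 2, with a median of -0.074, beside 49.9% and 0.00025 over all tested genes. Transcript length moved with this: over the 875 tested coding genes with transcripts of up to 1000 bases the medians were 0.12 and -0.071, and over the 557 with more than 8000 bases -0.079 and 0.047. The median transcript length was 865 bases in the members and 2493 bases in all tested genes. In the 53 members of up to 1000 bases the medians were 0.15 and -0.093. The part of transcript length in the spread of the members was not tested further. The summed levels of the members, 8048 and 8538 CPM in unloaded and 8376 and 8149 CPM in loaded cells, thus overlapped, and the difference of the group means was -0.365%.

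**Figure D5:**
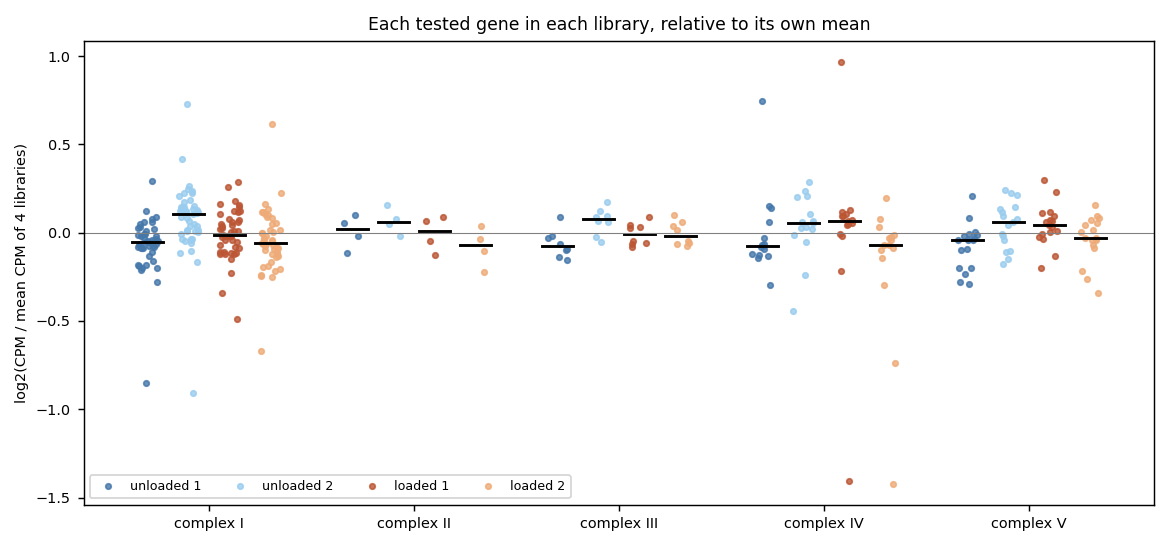
Log2 ratio of each tested gene's CPM in a library to its mean over the 4 libraries (vertical axis), by complex and library, with black lines at the medians. By its median, library 2 of the unloaded group lies above library 1 in each complex, and library 2 of the loaded group below library 1 in each. The loaded shift was uneven. The median difference of the genes was -0.16 in complex IV, -0.019 in complex I and -0.0047 in complex III, where 4 genes were higher and 4 lower.

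The genes that act around the chain were also counted. Of 39 tested assembly factors of the complexes outside the members' names, 0 were called by edgeR or DESeq2 at an adjusted p under 0.01, and their median log2 fold change was 0.018. At an unadjusted p under 0.05, 2 were higher and 3 lower in edgeR, and over all tested genes 6.88% were higher and 7.46% lower at that level. These 5 were named after their values were seen. *Sco2* (15.2 and 15.6 CPM in unloaded, 8.40 and 10.4 CPM in loaded cells) and *Sco1* (24.0 and 23.0 against 28.2 and 27.6 CPM), the copper chaperones of complex IV, had log2 fold changes of -0.71 (adjusted p = 0.140) and 0.25 (adjusted p = 0.348). *Cox20* (14.2 and 14.5 against 9.61 and 9.16 CPM), which works on the same copper site, was at -0.61 (adjusted p = 0.143). *Cox11*, another copper chaperone, was at 0.46 and *Coa7*, a complex IV assembly factor, at -0.34. On the opposite strand, exons of *Cox20* share 804 bases with *Hnrnpu* and those of *Cox11* 688 bases with *Tom1l1*. Exons of *Sco2* share 856 bases with *Tymp* on the same strand and 829 with *Ncaph2* on the opposite strand. The counts of *Cox20*, *Cox11* and *Sco2* are uncertain there, while *Sco1* and *Coa7* share no exon bases with another gene.

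Of the 15 regulators of mitochondrial biogenesis, 0 were called, and 3 were higher at an unadjusted p under 0.05, a level at which 6.88% of all tested genes were higher: *Ppargc1b* and, named after their values were seen, *Pprc1* and *Polrmt*. *Ppargc1b*, a co-activator of the PGC-1 family, was at 3.68 and 4.52 CPM in unloaded and 8.12 and 5.20 CPM in loaded cells (log2 fold change 0.70 ± 0.28, edgeR adjusted p = 0.345). *Pprc1*, of the same family, was at 57.7 and 51.7 against 63.3 and 72.3 CPM (0.31, adjusted p = 0.298), and *Polrmt*, the mitochondrial RNA polymerase, at 33.1 and 37.2 against 42.1 and 42.3 CPM (0.26, adjusted p = 0.330). *Ppargc1a*, another co-activator of the PGC-1 family, was at 0.999 and 0.660 against 1.12 and 1.27 CPM. *Nrf1* was at 20.1 and 19.7 against 21.7 and 20.6 CPM, and its log2 fold change was 0.085 ± 0.11. *Gabpa* (-0.045), *Tfam*, which packages mitochondrial DNA (-0.060), and *Esrra* (0.18) had adjusted p of 0.834, 0.813 and 0.489. Cytochrome c (*Cycs*) and cytochrome c1 (*Cyc1*) had log2 fold changes of 0.069 and 0.061. Of 7 tested carriers, porins and uncoupling genes, 0 had an unadjusted edgeR p under 0.05 in either direction. Over all tested genes 14.3% did, and 18.8% of those of at least 10 CPM. No list reached a call, and the share of edgeR calls over all tested genes at this threshold was 0.0983%.

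Members with and without a motif in their promoter differed little in their median log2 fold change. It was 0.011 in the 22 tested members with the NRF1 letters and -0.0016 in the 51 without, 0.0039 in the 12 with the YY1 letters and 0.011 in the 61 without, and -0.032 in the 11 with the antioxidant response element letters and 0.011 in the 62 without. The 5 members with the GABP letters (*Atp5h*, *Cox8a*, *Ndufs3*, *Uqcr11* and *Uqcrh*) had a median of -0.033, and the 68 without 0.013. Those 5 ranged from -0.47 for *Cox8a* to -0.0016 for *Uqcrh*. These differences were not tested, and the SE of a single member (median 0.11) does not measure the uncertainty of a median over members.

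The subunits encoded in mitochondrial DNA could not be set beside these genes. All 37 mitochondrial genes in the table, 13 of them protein coding, 2 ribosomal and 22 transfer RNA genes, were listed at 0 counts in all 4 libraries, and their values were not read as expression.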

How the data were processed

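RNA-seq of MLO-Y4 cells, with 2 unloaded and 2 loaded libraries, was re-analysed from the deposited gene counts, and groups were taken from the sample titles. According to the submitters' processing notes and the study's methods, the authors mapped reads to mm10 with HISAT2 2.1.0 and assembled and counted them with StringTie 1.3.5. The deposited counts are whole numbers without normalization. The annotation release, strandedness, read length and treatment of reads with several matches are not given in the sources used here. All gene identifiers occur in GENCODE M21 (GRCm38), which supplied coordinates, biotypes and lengths. A count of 3, or 0.0930 to 0.103 CPM per library, was taken as the floor, for counting error alone.

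Genes were filtered with filterByExpr (count minimum 10, 16269 genes kept), scaled by TMM and fitted in edgeR 4.0.16 (R 4.3.3) on the whole table, without covariates, for its quasi-likelihood F test. Benjamini-Hochberg adjustment ran over all tested genes, with a threshold of 0.01. The SE is the log2 fold change divided by the square root of F. The test was run on counts simulated from the means and dispersions fitted to these libraries, with added log2 fold changes of 1 or 2 in either direction. Smaller differences were not simulated. Alternatives were DESeq2 1.42.0, limma-voom (limma 3.58.1), RLE, upper-quartile or no scaling factors, no filter, a minimum of 10 counts per library, a block for the replicate number and leaving out each library. The members, lists, motifs and tests were chosen with earlier results of these data known. Genes named with values were any called member, the 2 smallest p-values per role, all Sdh genes, isoform families, the 3 largest changes each way, the highest and lowest level per length in each complex, and 6 regulators. The result of 1 gene that this rule selects is not reported here. Other genes are marked as picked out after their values were seen. Levels per length are TMM-scaled CPM divided by the median length of a gene's principal transcripts. Promoter windows are from RefSeq (GRCm38.p6).

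Processed pseudogenes with sequence like their parent genes exist for many members, and how reads were shared between them is not known. Of the 89 tested members, 29 share exon bases with a gene on the opposite strand and 5 with one on the same strand (*Ndufb2*, *Ndufb8*, *Ndufb9*, *Atp5g2* and *Atp5o*), so that their counts are uncertain there. Chi-square per degree of freedom between replicates was 17.0 and 18.8 over all tested genes, so no library was a copy of another.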

Additional observations from a re-analysis of the deposited data

How the results depend on the processing

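No member was called under any setting, and leaving out each library in turn gave 0 to 0 calls in either direction. Without 1 library each, the median log2 fold change ranged from -0.079 to 0.046 for all members, -0.081 to 0.033 for complex I, -0.14 to -0.062 for complex II, -0.077 to 0.067 for complex III, -0.048 to 0.096 for complex IV and -0.051 to 0.046 for complex V. The median of all members was -0.079 without unloaded library 1, that of complex II -0.094 without unloaded library 2 and -0.062 without loaded library 2, that of complex III 0.067 without unloaded library 2, and that of complex V -0.051 without unloaded library 1. So the sign of every median but that of complex II depended on a single library. Under the other settings these medians moved by less than the spread between replicates.

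Several single genes turned sign when 1 library was left out. The ranges were -0.89 to 0.68 for *Ndufb4c*, -0.28 to 0.12 for *Ndufb9*, -0.30 to 1.08 for *Ndufaf4*, -0.18 to 0.033 for *Ndufv2*, -0.022 to 0.13 for *Uqcrfs1*, -0.18 to 0.14 for *Uqcr11*, -0.24 to 0.096 for *Cox7a2*, -1.15 to 1.22 for *Cox7a1*, -0.033 to 0.14 for *Cox6b1*, -0.12 to 0.27 for *Cox6a2*, -0.090 to 0.13 for *Cox6a1*, -0.038 to 0.041 for *Cox4i1*, -0.079 to 0.23 for *Atp5g3*, -0.12 to 0.21 for *Atp5g1* and -0.084 to 0.00079 for *Gabpa*. With total counts only, *Cox6a1* (-0.0068) and *Cox4i1* (-0.018) were negative. Left-out libraries moved *Cox8a* between -0.95 and -0.11, *Ndufaf3* between -0.91 and -0.22 and *Sdhb* between -0.29 and -0.0060, while *Atp5mpl* stayed between 0.29 and 0.51 and *Ndufb5* between -0.53 and -0.28.

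The labels do not say whether libraries with the same replicate number were paired. Same-numbered libraries deviated from their group means with a correlation of -0.057, which cannot decide this, and the main fit left the number out. With the replicate number as a block, 0 members were called higher and 0 lower, and the median of all members was 0.0055. With 2 libraries a group, the median distance of a member's log2 fold change to its 95% bound was 0.28. This bound is before adjustment for the number of genes tested, and a call needed more. *Atp5mpl* at 0.40 (edgeR adjusted p = 0.203) and the marker *Pdpn* at 0.59 (edgeR adjusted p = 0.0334) were not called by edgeR at 0.01. DESeq2 called *Pdpn* (DESeq2 adjusted p = 2.23e-08) but not *Atp5mpl* (DESeq2 adjusted p = 0.0607). The absence of calls thus does not by itself exclude differences above 0.28 in single genes.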

Other observations

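Of the 9 names with -ps that were left out, *Ndufb1-ps* alone was abundant, with 632 and 916 counts in unloaded and 1002 and 696 counts in loaded cells (21.8, 30.2, 31.1 and 23.4 CPM). It is annotated as a long noncoding RNA of a bidirectional promoter on chromosome 12 (GRCm38, 101968090 to 101977068, minus strand). *Atp5l2-ps* had 42, 35, 20 and 40 counts and *Ndufab1-ps* 37, 24, 19 and 15 counts in the 4 libraries in that order, and each of the other 6 had at most 8 counts in any library. *Csf1r*, a receptor of the macrophage lineage, was at 1558 to 1584 CPM in all 4 libraries, while *Ptprc*, *Adgre1* and *Acp5* did not exceed 0.155 CPM. Of the other macrophage and osteoclast markers, *Cd68* was at 5.58 and 4.65 CPM in unloaded and 3.07 and 2.82 CPM in loaded cells and *Ctsk* at 5.13 and 4.85 against 7.93 and 7.35 CPM, without overlap between the groups (edgeR adjusted p = 0.216 and 0.228).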
